A study of Rattus norvegicus with 4 samples.

Results

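Messenger RNA of 9 genes of Fc receptor and ITAM signalling was examined in exposed rat macrophages: the Fc gamma receptor genes Fcgr1a, Fcgr2a, Fcgr2b and Fcgr3a, the adaptor genes Fcer1g and Tyrobp, the kinase genes Syk and Lyn, and the phosphatase gene Ptprc. They were chosen by name, and every non-control probe whose accession maps to one of them was used. The probes were A_43_P15904 (Fcgr1a), A_44_P1081059 (Fcgr2a), A_42_P735417 (Fcgr2b), A_44_P306439 (Fcgr3a), A_44_P1053404 (Fcer1g), A_42_P807697 (Tyrobp), A_44_P293904 and A_64_P017329 (Syk), A_44_P273821 (Lyn) and A_42_P483564 (Ptprc). That gave 10 of 45598 non-control probes and 38 of 58717 non-control spots per array. The 9 genes are among 16581 with a named probe. The cells were NR8383, a rat alveolar macrophage line started from lung lavage, at 20 passages, and each of the 4 cultures had been exposed for 4 h to the multi-walled carbon nanotube NM403, at 0.8 cm² per cm². The 4 arrays are labelled as biological replicates of 1 group. Unexposed cultures that the design names were not analysed here, so no value below is a response to NM403.

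Fc gamma receptors bind the constant part of immunoglobulin G and let macrophages take up coated particles. Most activating ones carry no signalling motif of their own and depend on the small gamma chain encoded by Fcer1g. The tail of that chain holds an immunoreceptor tyrosine-based activation motif (ITAM). Src family kinases such as Lyn phosphorylate the ITAM tyrosines, and the kinase Syk then docks on them. Tyrobp encodes DAP12, an ITAM adaptor of other myeloid receptors. Fcgr2b encodes the inhibitory receptor of the family. Ptprc encodes CD45, a phosphatase that removes an inhibitory phosphate from Src kinases.

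The rat names need care. In the RefSeq gene table of assembly GRCr8, Fcgr2a also carries the older names Fcgr3, fcRIII and Fcgr3a, the last being the present symbol of another of the 9, and Fcgr3a the older names Fcgr4 and CD16-2. Fcgr2b, Fcgr3a and Fcgr2a follow each other on chromosome 13 with 0 protein-coding genes between them, and Fcer1g lies 9 protein-coding genes further on. Ptprc is on the same chromosome, 208 protein-coding genes before Fcgr2b. The gene Fcgr2al1, listed beside Fcgr2a, has a probe of its own that read 4.13, 4.52, 4.16 and 4.48 on replicates 1 to 4. The probe sequences were not used here, so how far probes of these related genes read each other's transcripts was not tested.

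The RefSeq promoter table of GRCr8, which gives 250 bases before to 50 after a gene's start, held 4 of the 9 genes: Fcgr2a, Fcgr3a, Syk and Ptprc. The promoters of Fcgr3a, at chr13:85782386-85782685 on the plus strand, and of Ptprc, at chr13:52259697-52259996 on the minus strand, are shown because these genes had the widest spread between cultures of the 9 and their levels ran in opposite order. Capitals mark GAGGAA on either strand (TTCCTC on the strand shown), the core of sites bound by PU.1, the macrophage factor encoded by Spi1.
Fcgr3a: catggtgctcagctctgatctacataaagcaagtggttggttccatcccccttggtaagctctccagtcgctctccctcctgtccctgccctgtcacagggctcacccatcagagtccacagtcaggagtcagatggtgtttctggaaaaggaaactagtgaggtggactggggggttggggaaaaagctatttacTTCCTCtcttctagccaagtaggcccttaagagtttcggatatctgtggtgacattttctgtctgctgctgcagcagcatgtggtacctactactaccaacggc
Ptprc: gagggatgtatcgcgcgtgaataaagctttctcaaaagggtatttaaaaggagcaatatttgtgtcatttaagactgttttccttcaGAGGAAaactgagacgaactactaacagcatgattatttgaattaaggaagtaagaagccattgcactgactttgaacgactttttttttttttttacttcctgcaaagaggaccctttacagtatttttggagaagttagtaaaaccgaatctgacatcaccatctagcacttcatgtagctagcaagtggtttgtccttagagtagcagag
The match began 54 bases before the start in Fcgr3a and 163 bases before it in Ptprc. Syk had a match 62 bases before its start, and Fcgr2a, with 2 listed starts, had matches 143 and 102 bases before one of them. GAGGAA was found on either strand in 4 of 4 of these genes, that is in 4 of their 5 listed promoters, and in 27.6% of all 33469 promoters of the same length. The longer GAGGAAGT, which contains it, was found in Fcgr3a alone and in 2.42% of all promoters. TATAAA, searched on both strands, was in none of these 4 genes and in 14.2% of all promoters. These matches describe letters and show no binding.

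The arrays did not scatter evenly. Across 7935 genes whose brightest probe was detected on all arrays, replicates 1 and 3 correlated at a Pearson r of 0.996 and replicates 2 and 4 at 0.992, while the other 4 pairs ran from 0.967 to 0.970. The labels give no reason for this. Replicates 2 and 4 both read above replicates 1 and 3 in 47.3% of these genes, and both below them in 34.5%. Between 45.9% and 50.8% of non-control spots per array were well above background, and no spot was saturated. Feature Extraction marked replicate 4 for evaluation, with 2 of 11 quality measures out of range. Macrophage markers were detected on all arrays for 7 of 10 measured genes, against 47.9% of all genes with a named probe. Among them were Cd68, Csf1r, Lyz2, and Spi1 at -0.19, 0.35, -0.32 and 0.25 on replicates 1 to 4. Mertk, Marco and Adgre1 were not.

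All 9 genes were detected on all 4 arrays, where a gene counts as detected if a probe is well above background. Over all genes with a named probe that share was 47.9%. The median spot signal of the main probes was 38.6 to 2602 times its local background. Levels below are log2 processed intensities minus the 75th percentile of the detected probes of the same array, with mean ± SD over 4 cultures (n = 4 throughout). They serve to compare a single probe between cultures, not genes with each other. The number of arrays limits their precision, and fewer cells of a type and less RNA per cell cannot be told apart.

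Among the activating receptors, Fcgr1a encodes the high-affinity receptor for immunoglobulin G. Its probe had intensities of 7870, 9502, 6629 and 10406 on replicates 1 to 4, and levels of 1.54, 1.92, 1.55 and 1.91. Its mean level was 1.73 ± 0.21, with a 1.30-fold range. Replicates 2 and 4 read alike and above replicates 1 and 3.

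Fcgr2a encodes a low-affinity receptor. Its probe is printed 10 times per array, and the mean intensities were 61171, 74749, 53698 and 87060. The levels were 4.49, 4.89, 4.57 and 4.97, with a mean of 4.73 ± 0.23 and a 1.39-fold range. Its spots within an array had SDs of 0.044 to 0.066. Replicates 2 and 4 were above replicates 1 and 3 as scaled here, and after quantile normalization the 4 levels lay within 0.06 of each other.

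Fcgr3a encodes the low-affinity receptor that RefSeq also lists as CD16-2. Its intensities were 11384, 15436, 8970 and 15909, and its levels were 2.07, 2.62, 1.99 and 2.52. The mean was 2.30 ± 0.31, with a 1.54-fold range. It had the largest SD of the 4 receptors, and replicates 2 and 4 were again above replicates 1 and 3.

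The inhibitory receptor gene Fcgr2b was the steadiest of the 9 as scaled here. After quantile normalization it was not, with an SD of 0.131 against 0.0265 for Fcgr2a. Its probe is also printed 10 times per array and had mean intensities of 7604, 6955, 6411 and 7209. The levels were 1.49, 1.47, 1.51 and 1.38, with a mean of 1.46 ± 0.06 and a 1.09-fold range. Its SD stood at percentile 4.71 of the detected genes. Without replicate 4, the lowest of the 4, the SD was 0.0118. The spots within an array had SDs of 0.053 to 0.090.

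**Figure D1:**
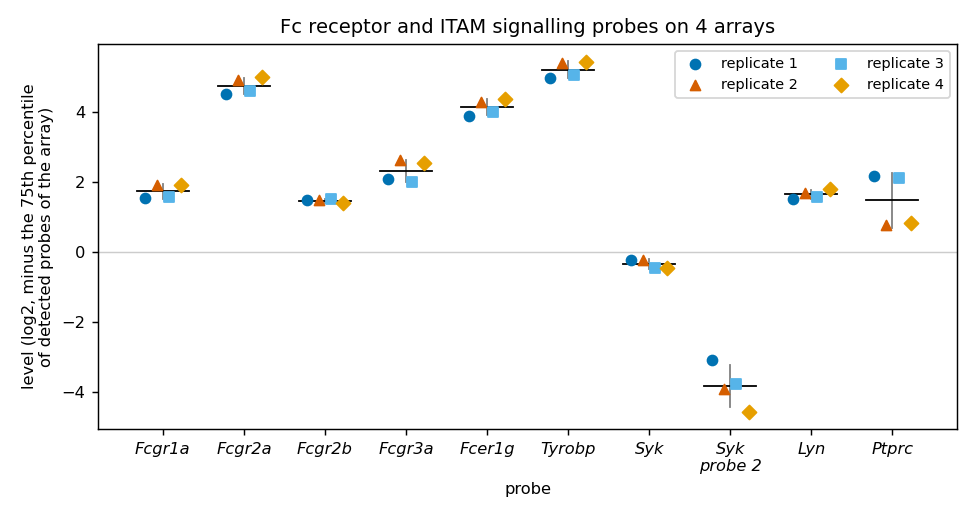
Level of each of the 10 probes (log2, relative to the 75th percentile of detected probes of the array) on the 4 arrays, with horizontal lines for the mean and vertical lines for ± SD. Ptprc shows the widest gap among the main probes, with replicates 1 and 3 at 2.16 and 2.11 and replicates 2 and 4 at 0.77 and 0.81, and heights of different probes are not comparable.

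The adaptors were bright on every array. Fcer1g, the gamma chain, had mean intensities of 40128, 48891, 35517 and 56450 over 2 spots. Its levels were 3.89, 4.28, 3.98 and 4.35, with a mean of 4.12 ± 0.23 and a 1.38-fold range.

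Tyrobp, the DAP12 adaptor, had mean intensities of 83541, 104548, 73842 and 117897 over 10 printed spots. Its levels were 4.94, 5.38, 5.03 and 5.41, with a mean of 5.19 ± 0.24 and a 1.38-fold range. Replicates 2 and 4 were above replicates 1 and 3 for both adaptors.

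**Figure D2:**
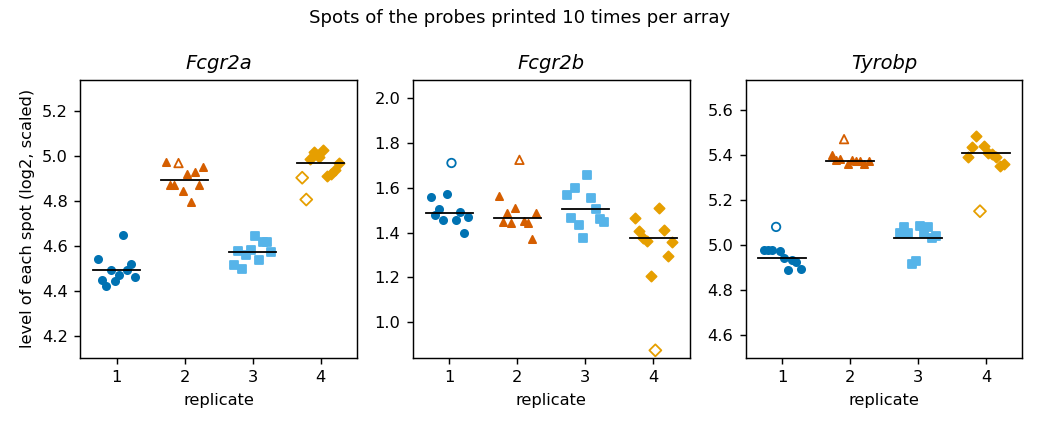
Level of every spot (log2, scaled as above) of the Fcgr2a, Fcgr2b and Tyrobp probes, printed 10 times on each of the 4 arrays. Lines are the mean of the spots used and open symbols are spots flagged as outliers, which were left out; the spots used of replicates 2 and 4 lie above those of replicates 1 and 3 for Fcgr2a and Tyrobp, while those of Fcgr2b overlap between arrays.

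Of the kinases, Syk docks on phosphorylated ITAMs. Its brighter probe had intensities of 2325, 2118, 1631 and 2027, and levels of -0.22, -0.25, -0.47 and -0.45. The mean was -0.35 ± 0.13, with a 1.19-fold range, and replicates 1 and 2 were above replicates 3 and 4. The other Syk probe was well above background on all arrays but dim, at intensities of 319, 166, 166 and 117. Its levels were -3.09, -3.92, -3.76 and -4.57, with an SD of 0.61 and a 2.78-fold range. The Syk probes therefore disagree on the spread: the bright one varied little, and the dim one was read at 4.02 to 8.72 times its local background.

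Lyn is the Src family kinase of the set. Its intensities were 7744, 8039, 6640 and 9608, and its levels were 1.51, 1.68, 1.56 and 1.79. The mean was 1.63 ± 0.13, with a 1.21-fold range. The gap between replicates 2 and 3 was smaller than that SD.

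Ptprc, the CD45 phosphatase gene, varied most. Its intensities were 12155, 4306, 9752 and 4866, and its levels were 2.16, 0.77, 2.11 and 0.81. The mean was 1.46 ± 0.78, with a 2.62-fold range. Replicates 1 and 3 were far above replicates 2 and 4, the reverse of Fcgr1a, Fcgr2a, Fcgr3a and the adaptors. The SD stood at percentile 95.4 of the detected genes. The probe is printed 1 time per array, and Feature Extraction put the error of its signal at about 10.0% on each array. The main probes of the other genes described had the same error of about 10.0%, so the value is not particular to Ptprc. Of the 24 spots around it, 1 read at least 4-fold above the remaining arrays on replicate 2, and 0 did on the others.

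The spread of the 9 genes relative to other genes depended on the scaling. Their median SD was 0.225 as scaled here, against 0.234 over the 7935 detected genes, and 5 of 9 were below that value. After quantile normalization it was 0.109 against 0.253, and with the percentile of every non-control probe 0.435 against 0.353. A range above 2-fold held for 1 of 9, Ptprc, against 13.6% of the detected genes.

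**Figure D3:**
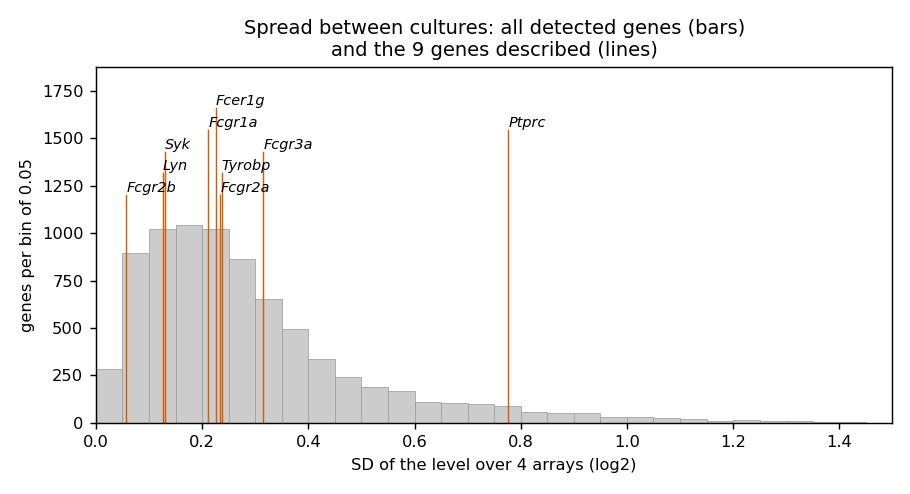
Number of detected genes per bin of 0.05 in the SD of their level over the 4 arrays (log2), with lines at the SD of the 9 genes described. Of the 7935 genes, 14 have an SD above 1.5 and lie beyond the axis; Fcgr2b stands at 0.06, Ptprc at 0.78, and the other 7 genes between 0.13 and 0.31.

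As scaled here, replicates 2 and 4 both read above replicates 1 and 3 for 6 of the 9 genes (Fcgr1a, Fcgr2a, Fcgr3a, Fcer1g, Tyrobp and Lyn), where 47.3% of detected genes did so. The reverse held for Fcgr2b and Ptprc, 2 of 9, against 34.5%. Syk showed neither order. The order depended on the scaling for most of these genes. With quantile normalization, replicates 2 and 4 were above replicates 1 and 3 for 2 of 9, Fcgr1a and Fcgr3a, against 57.0% of detected genes, and the reverse held for 3 of 9 (Fcgr2a, Fcgr2b and Ptprc) against 28.0%. The range of Fcgr2a shrank from 0.48 to 0.06, that of Fcer1g from 0.46 to 0.09 and that of Tyrobp from 0.47 to 0.15 on the log2 scale. When every non-control probe entered the percentile, 8 of the 9 had replicates 2 and 4 above, Fcgr2b and Syk among them, against 69.9% of detected genes. Ptprc kept replicates 1 and 3 above replicates 2 and 4 under all 5 scalings tried, with a range of 1.03 to 1.60. Fcgr1a and Fcgr3a kept replicates 2 and 4 above replicates 1 and 3 under all 5. The scalings also moved the median of all detected genes: its deviations spanned 0.10 as reported, 0.47 when the percentile was taken over all non-control probes, 0.59 when the array median was used and 0.21 after quantile normalization.

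**Figure D4:**
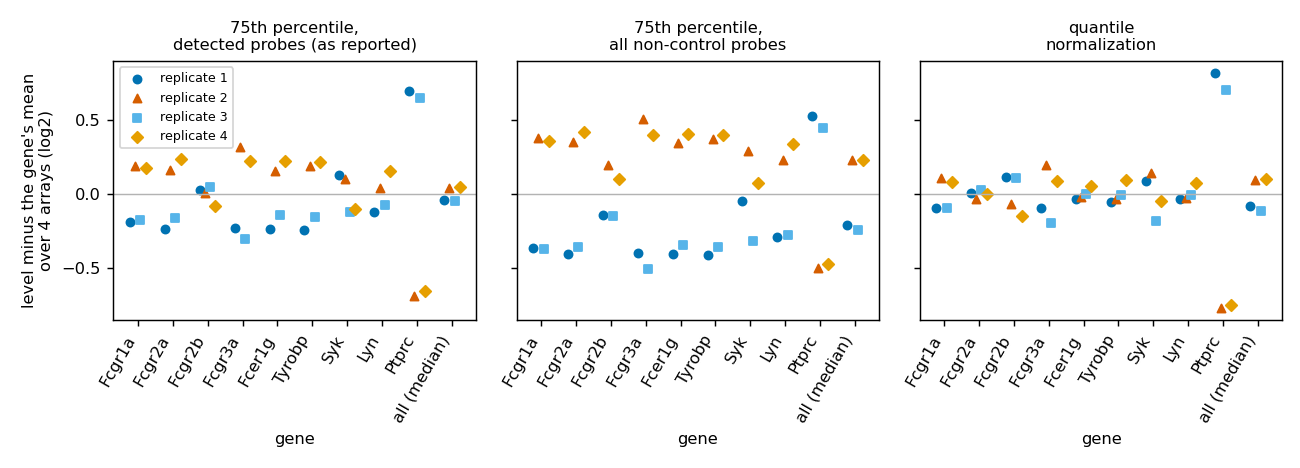
Level of each gene on each of the 4 arrays minus the gene's own mean (log2), under 3 scalings, with the median over all detected genes at the right. Quantile normalization brings the 4 arrays of Fcgr2a within 0.06 and of Fcer1g within 0.09, while Ptprc spans 1.39 as reported, 1.03 when every non-control probe enters the percentile and 1.60 with quantile normalization.

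The ratio of a pair of genes within an array is free of any single scaling value, so the 36 pairs of these genes were set side by side. Quantile normalization is not such a single value and can change the ratios, which were not computed after it. With it the ranges of Fcgr2a, Fcgr2b and Syk were 0.06, 0.26 and 0.33 on the log2 scale, against 0.48, 0.13 and 0.25 as scaled here. Of these 36 pairs, those among Fcgr2a, Fcer1g and Tyrobp were the closest. How close pairs of other detected genes commonly are was not computed. The ratio of Fcgr2a to Fcer1g had a 1.02-fold range over the 4 arrays, and that of Fcer1g to Tyrobp and of Fcgr2a to Tyrobp a 1.03-fold range each. Fcgr1a kept its ratio to these genes within a 1.06-fold to 1.08-fold range. The ratio of Fcgr2a to Fcgr2b, an activating and the inhibitory receptor, had a 1.50-fold range. The ratio of Fcgr2b to Syk had a 1.20-fold range. Ratios to Ptprc ranged most, from 2.58-fold with Fcgr2b to 3.90-fold with Fcgr3a. The 4 arrays give no correlation, and a ratio shows unequal change without saying which gene differed.

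The detected genes most like Ptprc, by the root mean square difference between centred levels over the 4 arrays, were Lims1 (0.00747), Hnrnpul2 (0.0116), Zfp202 (0.0132) and Wbp4 (0.0182). Lims1 read -0.78, -2.17, -0.81 and -2.13 on replicates 1 to 4. Those most like Fcgr3a were Atp6v0c (0.00448), Crip2 (0.00659), Uxt (0.00961) and Arf5 (0.0107). Atp6v0c, a subunit gene of the lysosomal proton pump, read 2.69, 3.24, 2.62 and 3.15. These are the closest of 7935 genes over 4 arrays. The closest pair of the genes described, Fcgr2a and Fcer1g, had a root mean square difference of 0.0102. That is larger than the difference of Lims1 from Ptprc or of Atp6v0c from Fcgr3a, so such closeness is not particular to a receptor and its adaptor.

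Other genes of the pathway were described from 5 lists. All 4 arrays detected 66 of 100 measured genes, 1 to 3 arrays detected 10 and no array 24, a share of 66.0% against 47.9% of all named genes. The median SD of the 66 was 0.227, and 9 of them (13.6%) had a range above 2-fold, as did 13.6% of all detected genes. Of 30 detected genes of these lists named below or in the closing observations, 21 kept their order of cultures (replicates 2 and 4 above, replicates 1 and 3 above, or neither) under all 5 scalings tried. Replicates 2 and 4 were above in 13 of these and replicates 1 and 3 in 7, and Lcp2 had neither order throughout.

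**Figure D5:**
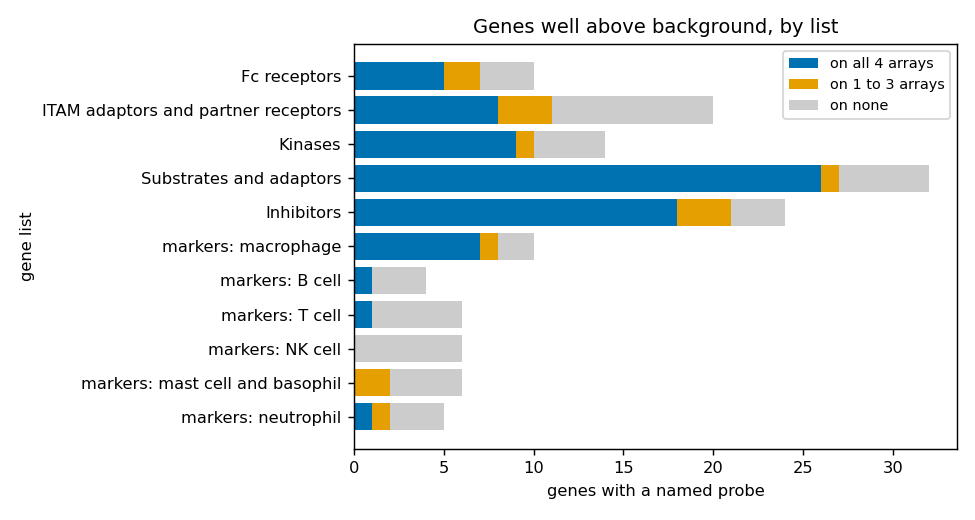
Number of genes with a named probe that were well above background on all 4 arrays, on 1 to 3 or on none, for 5 pathway lists and 6 marker lists. Substrates and adaptors had 26 of 32 detected on all arrays and ITAM adaptors and partner receptors 8 of 20, while NK cell markers had 0 of 6. Over all genes with a named probe the share was 47.9%.

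Of 10 further Fc receptor genes, 5 were detected on all arrays, near the 47.9% of all named genes. Fcgrt, the neonatal receptor that recycles immunoglobulin G, read -0.31, 0.26, -0.42 and 0.30. Trim21, the cytosolic antibody receptor, had a level of -3.63 ± 0.39, and its other probe was detected on 3 arrays. Fcer1a, the ligand-binding chain of the mast cell receptor for immunoglobulin E, was detected on 3 arrays and read -4.41, -3.33, -7.38 and -5.43. Its beta chain gene Ms4a2 was on no array well above background.

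Among ITAM adaptors and their partner receptors, 8 of 20 were detected on all arrays, against 47.9% of all named genes. Trem2, a lipid-sensing receptor that signals through DAP12, read 4.89, 5.55, 4.93 and 5.59 over 10 printed spots. Trem1, which amplifies inflammation through the same adaptor, read -0.96, -0.33, -0.98 and -0.23. Clec5a, another DAP12 partner, had a level of -1.64 ± 0.09, and Hcst, the DAP10 adaptor listed beside Tyrobp in the genome, of 0.94 ± 0.21. Under all 5 scalings tried, replicates 2 and 4 were above replicates 1 and 3 for Trem1, Trem2 and Hcst, while the order of Clec5a changed with the scaling.

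Clec7a, the beta-glucan receptor that carries a single-tyrosine form of the motif, had a level of 2.24 ± 0.12. Its other probe, at 1.19 ± 0.12, had a like spread. Clec4e, the Mincle receptor that pairs with the gamma chain, was detected on 3 arrays and read between -5.95 and -5.40. The lymphocyte ITAM genes Cd3e, Cd247 and Cd79b were on no array well above background, Cd79a had no named probe, and Cd3d was detected on all arrays, at -3.97 ± 0.17.

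Of 14 kinases, 9 were detected on all arrays. The Src family gene Fgr read -1.59, -0.99, -1.66 and -0.83, with replicates 2 and 4 the high ones. Fyn had a level of -2.20 ± 0.08 and Btk, a kinase downstream of Syk, of -1.31 ± 0.21. Csk, which places the phosphate that CD45 removes, read 1.70, 2.33, 1.73 and 2.49. Replicates 2 and 4 were high for Csk, as for 47.3% of detected genes, and low for Ptprc, as for 34.5%. A link between these orders was not tested. Src and the T cell kinase Zap70 were on no array well above background. The widest ranges were 3.75-fold for Yes1 and 3.02-fold for Lck, a kinase gene of T cells that read -4.55, -3.04, -4.64 and -4.12.

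Substrates and adaptors had 26 of 32 genes detected on all arrays. Plcg2, a phospholipase that Syk activates, had a level of -1.50 ± 0.21, the exchange factor gene Vav1 of -1.32 ± 0.15 and Card9, which links Syk to NF-kB, of -0.10 ± 0.12. Lcp2, which encodes the adaptor SLP-76, was dim, at -4.44 ± 0.31. Lat2 and Blnk, adaptors of B cells and myeloid cells, were on no array well above background. A range above 2-fold held for Sos1 (-2.62, -3.99, -2.28 and -3.64) and Pik3ca (-0.90, -2.02, -0.88 and -1.85). Both had replicates 1 and 3 above replicates 2 and 4, as Ptprc did.

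Inhibitors had 18 of 24 genes detected on all arrays. Ptpn6, the SHP-1 phosphatase, read 3.71, 4.31, 3.76 and 4.37 over 10 printed spots. Inpp5d, the SHIP1 lipid phosphatase that the inhibitory receptor recruits, read -0.27, 0.09, -0.28 and 0.08. Sirpa, the receptor for CD47, had a level of 3.52 ± 0.15 on its brighter probe and -1.76 ± 0.05 on the other, which was also detected on all arrays. Dok3 had a level of 2.30 ± 0.24 and Ubash3b, which dephosphorylates Syk, of -4.13 ± 0.32.

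Ranges above 2-fold among the inhibitors included 6.90-fold for Clec4a, 3.20-fold for Siglec5 and 2.60-fold for Lilrb4. The Clec4a range rests on replicate 1, at -5.46 against -3.55 to -2.67 on the others, and its other probe was on no array well above background. Lilrb4 read -1.90, -3.28, -2.35 and -3.10. Replicates 1 and 3 were above replicates 2 and 4 for both Lilrb4 and Siglec5.

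Few markers of other cells that use these receptors were seen, where 47.9% of all named genes were detected on all arrays. All 4 arrays detected 1 of 4 B cell markers (Pax5), 1 of 6 T cell markers (Cd3d), 0 of 6 NK cell markers, 0 of 6 mast cell and basophil markers and 1 of 5 neutrophil markers (Camp). Between 1 and 3 arrays detected the mast cell markers Fcer1a and Gata2 and the neutrophil marker Ngp. Cd3e, Ncr1, Ms4a2 and Elane were among the markers on no array well above background. Pax5 read between -3.80 and -3.03, Cd3d between -4.20 and -3.80 and Camp between -2.77 and -2.14, and the part of such cells in the levels above was not tested.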

How the data were processed

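The labels' protocols state that total RNA (integrity number above 7.5, 100 ng labelled) came from flasks seeded for 48 h and was hybridised to 1-colour Agilent rat arrays. The deposited values are scanner intensities and the submitters' processing notes name Agilent Feature Extraction 11.0.1.1. The processed intensity had been background-subtracted within each array and the design is built on rn4, per the file headers. Deposited flags of 0 or 1 per spot gave detection and outliers.

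Control spots and outlier spots were left out, log2 values of a probe's spots were averaged, and a probe was detected where over 50% of its spots were well above background. Accessions were matched without version to the RefSeq table of GRCr8, whose build differs from the array's: 21109 probes had 1 symbol, 0 several and 24489 none. A gene took its brightest probe. Because 34.2% of probes were detected on all arrays, each array was scaled on the 75th percentile of those. Normexp used the median spot intensity and an offset of 50. There was 1 group, so no test was made. Members and lists were chosen with earlier results of these data known. Named genes were the 9 members, 32 fixed pathway genes, and per list up to 4 detected genes with a range above 2-fold; other names were chosen after their values were seen, and some genes are not reported here. Steps were tested on simulated data. Python 3.11.15, R 4.3.3 and limma 3.58.1 were used.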

Additional observations from a re-analysis of the deposited data

How the results depend on the processing

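Detection of the 9 genes on all arrays held under every detection rule tried and without each replicate, and the count of detected pathway genes ran from 66 to 75. The spread depended on the scaling. The median SD of the 9 genes was 0.225 as reported, 0.435 with the percentile of every non-control probe, 0.403 with the array median, 0.109 with quantile normalization and 0.112 with normexp and quantile normalization. The median SD of all detected genes was, in the same order, 0.234, 0.353, 0.350, 0.253 and 0.222. That of the detected pathway genes was 0.227 as reported, 0.352 with the percentile of every non-control probe, 0.344 with the array median, 0.249 with quantile normalization and 0.226 with normexp and quantile normalization, so the quantile scalings lowered the median of the 9 genes and not that of the pathway genes. The number of the 9 genes with a range above 2-fold was 1 as reported and with both quantile scalings. It was 2 with the percentile of every non-control probe and with the array median, the added gene being Fcgr3a. The share of all detected genes above 2-fold, 13.6% as reported, was not computed under the other scalings. The cause of these shifts was not tested. Leaving out a replicate gave a median SD of 0.205 to 0.248. Of the 9 SDs, 8 shifted more than 1.5 times with the percentile of every non-control probe and 8 with the array median, 7 with quantile normalization, 7 with normexp, 1 with the mean over probes (Syk, 0.348) and 1 with outlier spots kept (Fcgr2b, 0.0888). The SD of Ptprc moved by less than that under each alternative. Dim probes such as the other Syk probe are read least precisely. No paired analysis was possible because there is 1 group.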

Other observations

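Pigr, the receptor that carries polymeric immunoglobulins across epithelia, was bright on one of its probes. The levels of that probe were 2.97, 2.13, 3.09 and 2.01, a 2.11-fold range with replicates 1 and 3 above replicates 2 and 4, and 0 of the 24 spots around it were raised on any array. The other Pigr probe was on no array well above background, at -8.52 to -7.77, so the probes of this gene disagree.

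Fcrla, an Fc receptor-like gene known from B cells, is listed just before Fcgr2b on chromosome 13. It read 0.34, 0.49, 0.31 and 0.50, with an SD of 0.0965, on arrays that detected 1 of 4 B cell markers: Pax5 was detected on all of them, and Cd79b and Blk were on none well above background. Fcrla and Pigr were picked out after their values were seen.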
